A study of Mus musculus with 16 samples.

Results

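The 32 genes described here make, sense, take up, store and export cholesterol. They were listed by name, with earlier results of these data known, as the enzymes that turn acetyl-CoA into cholesterol (18 genes), the SREBP2 control system (4 genes), genes of uptake, intracellular transport and esterification (5 genes) and genes of efflux and the LXR receptors (5 genes). All 32 were among the 17362 genes listed in whole pituitaries and among the 14345 tested. RNA was sequenced from the pituitaries of 16 females at 27 weeks of age, 4 in each of 4 groups. Controls carried floxed *Esr1* alleles without Cre (*Esr1* fl/fl), and mutants were *Esr1* Nkx2.1-cre females, in which *Esr1*, the gene for oestrogen receptor-α, is deleted by Cre in the lineage of cells that express *Nkx2-1*. Each genotype was fed either the standard diet (SD, breeder chow) or the high-fat diet (HFD) for 17 weeks, and all mice had a mixed CD-1 and 129P2 background. The deletion was neither specific to the pituitary nor to 1 of its cell types, and a bulk library cannot tell fewer cells of a type from less RNA per cell.

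Animal cells make cholesterol through the mevalonate pathway. Acetyl-CoA is joined into mevalonate, isoprenoid units are joined into squalene, squalene is closed into the first sterol, lanosterol, and lanosterol is trimmed to cholesterol. When membrane cholesterol of the endoplasmic reticulum falls, SCAP carries the transcription factor SREBP2 to the Golgi, where it is cut and released to switch on the synthesis genes, and the INSIG proteins hold it back when sterols are plentiful. When sterols accumulate, oxysterols activate the LXR receptors, which switch on exporters such as ABCA1 and ABCG1, and SOAT1 stores the surplus as cholesteryl ester.

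The values are a normalized signal per gene, scaled by transcript length, with 1 library per mouse. They summed to between 908897 and 1335782 units per mouse. By the steps between low values of genes with a single transcript, 1 read was worth 0.0452 to 0.0676 units for each kilobase, so that *Hsd17b7*, the member with the lowest signal, rested on about 77.3 to 226 reads per mouse if all came from its longest transcript. Libraries of a group correlated at 0.918 to 0.974 across the tested genes, and none shared identical values. *Esr1* itself was at 29.0 to 46.6 in controls on SD and 10.025 to 22.2 in mutants on SD, whereas on HFD controls (23.6 to 43.4) and mutants (21.5 to 33.4) overlapped. Furthermore, 2 libraries stood apart. The mutant on SD labelled P357 and the control on HFD labelled P392 had a mean log2 level of 5 posterior lobe genes of 0.27 and 0.31, against 1.48 to 2.18 in the other 14 mice, and of 4 melanotroph genes of 3.66 and 5.18, against 6.71 to 8.23. The posterior lobe genes were divided. *Rax* was at 0 in both mice and *Scn7a* at 0.29 in P357 and 0.17 in P392, near the floor. *Col25a1* was at 13.9 in P357, and at 15.3 in P392 against 7.49 to 9.40 in the other controls on HFD. As a sum, the posterior lobe genes of P392 (16.1) lay among the other controls on HFD (15.2 to 17.1). The 2 libraries also differed beyond these markers. Within groups, pairs with P357 correlated at 0.918 to 0.938 and pairs with P392 at 0.93 to 0.944, against 0.956 or more in all other pairs. P357 had the highest sum of values and 533 genes at 0, against 96 to 310 in the other mice. Genotype and diet differences that P357 and P392 moved by more than 1.5 times are also given without both, from a fit to the other 14 mice.

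Several of these genes are textbook targets of SREBP2 and NF-Y, a factor that binds CCAAT boxes beside sterol regulatory elements. Promoter sequence, from 250 bases before to 50 after the RefSeq start, was at hand for 26 of the 32 members, 15 of them synthesis enzymes. A CCAAT box on either strand lay in 14 of these 15 (93.3%), against 41.1% of 27025 genes with a promoter, and the GC box GGGCGG, searched on both strands, also lay in 14 of the 15, against 38.2%. The synthesis promoters were GC-rich, with a median GC content of 60.8% against 52.7% over all promoters. The sterol regulatory element TCACNCCAC matched *Hmgcs1* alone of the 26 genes (1.44% of all genes), and TCACCCCA, a shorter core chosen after the sequences were read, matched *Hmgcs1*, *Srebf2* and *Apoe* (1.77%). The core and the longer element overlap in *Hmgcs1*, and both were searched on both strands. A match describes letters and does not make a site. The 5 promoters shown include *Hmgcs1* and *Idi1*, 2 early enzymes that correlated at 0.81 between mice of a group. Their correlation was 0.65 without P357 and P392, and 0.42 when P356 and P385 were left out as well. The others are *Sc5d* and *Srebf2*, whose genotype difference ran in opposite directions on the 2 diets, and *Soat1*, the member with the largest genotype difference. Capitals mark CCAAT boxes, written ATTGG where they lie on the opposite strand, and the matches to TCACNCCAC or TCACCCCA. All are from RefSeq on GRCm38.p6, 5′ to 3′ in the direction of the gene.
Hmgcs1 (chr13:119690101-119690400, plus strand): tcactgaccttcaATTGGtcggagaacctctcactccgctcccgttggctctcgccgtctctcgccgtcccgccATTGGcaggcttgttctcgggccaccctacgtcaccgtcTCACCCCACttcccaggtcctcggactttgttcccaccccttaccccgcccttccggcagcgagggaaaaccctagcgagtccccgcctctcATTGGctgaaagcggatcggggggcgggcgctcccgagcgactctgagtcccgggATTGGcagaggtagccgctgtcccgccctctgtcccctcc
Idi1 (chr13:8885356-8885655, plus strand): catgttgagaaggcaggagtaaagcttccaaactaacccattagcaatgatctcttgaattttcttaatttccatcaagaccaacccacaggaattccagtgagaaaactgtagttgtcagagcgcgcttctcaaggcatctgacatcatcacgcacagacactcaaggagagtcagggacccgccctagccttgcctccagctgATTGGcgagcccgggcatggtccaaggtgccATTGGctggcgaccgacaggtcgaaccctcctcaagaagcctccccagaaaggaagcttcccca
Sc5d (chr9:42264251-42264550, minus strand): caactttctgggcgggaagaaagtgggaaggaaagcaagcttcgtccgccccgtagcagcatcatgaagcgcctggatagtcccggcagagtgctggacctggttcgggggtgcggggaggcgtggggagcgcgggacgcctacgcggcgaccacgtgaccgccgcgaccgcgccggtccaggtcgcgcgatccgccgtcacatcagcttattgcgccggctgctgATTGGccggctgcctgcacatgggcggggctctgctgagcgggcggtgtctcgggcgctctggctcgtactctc
Srebf2 (chr15:82147019-82147318, plus strand): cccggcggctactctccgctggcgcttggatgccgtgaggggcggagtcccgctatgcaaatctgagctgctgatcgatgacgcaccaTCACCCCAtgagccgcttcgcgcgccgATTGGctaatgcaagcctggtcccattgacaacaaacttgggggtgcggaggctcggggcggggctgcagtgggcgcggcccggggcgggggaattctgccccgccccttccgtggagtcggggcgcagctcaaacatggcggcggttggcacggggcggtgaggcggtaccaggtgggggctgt
Soat1 (chr1:156474279-156474578, minus strand): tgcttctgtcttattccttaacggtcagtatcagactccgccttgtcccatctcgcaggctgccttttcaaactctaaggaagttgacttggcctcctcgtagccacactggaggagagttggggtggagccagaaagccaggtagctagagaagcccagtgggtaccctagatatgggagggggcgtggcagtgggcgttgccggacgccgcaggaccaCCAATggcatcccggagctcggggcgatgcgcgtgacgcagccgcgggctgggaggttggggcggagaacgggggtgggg
Counted from the start of transcription, the CCAAT boxes of *Hmgcs1* began at -237, -176, -45 and 10, those of *Idi1* at -45 and -14, and those of *Sc5d*, *Srebf2* and *Soat1* at -24, -135 and -30. The sterol element match lay at -137 in *Hmgcs1* and at -162 in *Srebf2*.

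Expression of the 32 genes spanned a wide range. *Apoe*, which encodes the lipid carrier apolipoprotein E, had the highest mean signal over the 16 mice, 237 units, followed by *Nr1h2* (64.4), which encodes LXRβ, and *Npc2* (45.3) and *Lrp1* (45.1), which serve lysosomal cholesterol export and lipoprotein uptake. Among the synthesis enzymes, *Fdft1* (25.6), *Fdps* (23.5) and *Pmvk* (23.2) were at the top, and *Hsd17b7* (1.83) and *Mvd* (4.58) at the bottom. These are means per transcript length, so they can be ranked, but neighbours such as *Npc2* and *Lrp1*, or *Fdps* and *Pmvk*, differed by less than their spread between mice of a group. That spread, as a coefficient of variation, was between 9.56% for *Nr1h2* and 34.4% for *Hsd17b7*.

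The comparison of mutants with controls on SD asks whether loss of oestrogen receptor in the *Nkx2-1* lineage goes with a different sterol programme in the gland. Of the 32 genes, 24 had a lower estimate in mutants and 8 a higher one, that is 75% lower, against 51% of all 14345 tested genes. The median difference over the members was -0.25 on the log2 scale, against -0.01 over all genes. However, 7 of the 32 (21.9%) had an unadjusted p under 0.05, close to the 19.9% of all genes, and 1 member, *Soat1*, passed an adjusted p of 0.05 from limma with Benjamini-Hochberg adjustment, where 1.84% of all genes did. In 4 members (12.5%) the groups did not overlap, against 10.6% of all genes. In the fit without P357 and P392, 23 of 32 members had a lower estimate (71.9%, against 47.7% of all genes), with a median of -0.13 against 0.02 over all genes. In that fit 2 members, *Soat1* and *Fdft1*, passed adjustment (6.25%, against 6.7% of all genes).

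**Figure D1:**
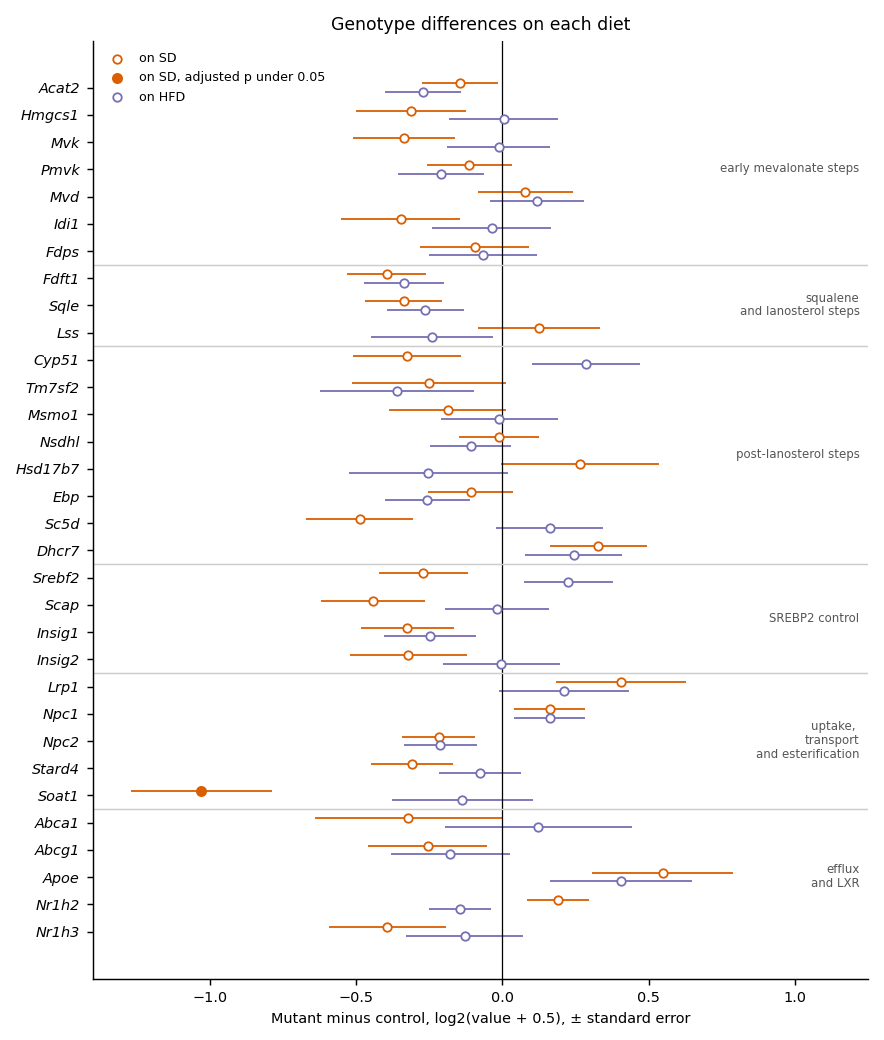
Difference between mutants and controls on the log2(value + 0.5) scale for each of the 32 genes on SD and on HFD, with standard errors from limma; genes run in pathway order and grey lines part the groups by role. *Soat1* on SD, at -1.03, is the only filled point, which marks an adjusted p under 0.05, and *Apoe* lies farthest to the right on both diets.

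*Soat1* showed the largest difference of the set. It encodes sterol O-acyltransferase 1, the enzyme that esterifies cholesterol for storage in lipid droplets. Its signal was 29.2, 36.9, 41.7 and 37.6 in the controls on SD and 8.80, 23.8, 20.1 and 21.6 in the mutants on SD. All 4 mutants lay below all 4 controls, and the lowest was P357. In limma *Soat1* fell by 1.03 on the log2 scale (standard error 0.24, adjusted p = 0.0423), with means of 36.3 ± 5.20 in controls and 18.6 ± 6.70 in mutants (SD, n = 4 each). Without P357 and P392 it was smaller in size, -0.71, with an adjusted p of 0.0172. The adjusted p was 0.0999 when only the 8 mice on SD entered the fit and 0.051 without a trend of the variance, and leaving out single mice left the call in 6 of 16 cases. On HFD controls were at 27.4, 35.0, 30.2 and 30.1 and mutants at 36.8, 26.9, 26.8 and 22.2, so the groups overlapped, and the difference was -0.14 (standard error 0.24, adjusted p = 0.901 from limma).

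Among the other genes of uptake and transport, *Stard4*, which encodes a soluble sterol carrier, had a difference on SD of -0.31, and *Npc2* one of -0.22 (-0.13 without P357 and P392). *Npc1*, the membrane partner of NPC2 in lysosomal export, differed by 0.16 and *Lrp1*, an endocytic receptor for lipoproteins, by 0.40. None of the 4 passed adjustment (adjusted p of 0.236 to 0.467 from limma). *Lrp1* was at 27.6 to 46.9 in controls on SD and 43.8 to 60.9 in mutants on SD, with the highest value in P357. In controls on HFD it was at 31.2, 35.7, 37.4 and, in P392, 68.2.

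At the squalene steps, *Fdft1* and *Sqle* had lower estimates in mutants on both diets. *Fdft1* encodes squalene synthase, the enzyme that commits isoprenoids to sterols, and *Sqle* encodes squalene epoxidase, which adds oxygen to squalene before ring closure. *Fdft1* was at 29.5, 25.5, 31.8 and 32.6 in controls on SD and 24.1, 23.0, 22.9 and 20.1 in mutants on SD, without overlap. On HFD it was at 29.2, 34.5, 29.2 and 20.1 in controls and at 21.5, 23.2, 20.7 and 22.1 in mutants, where the lowest control, P392, fell below the mutants and the other 3 controls lay above them. The differences were -0.40 (standard error 0.14, adjusted p = 0.131) on SD and -0.34 (standard error 0.14, adjusted p = 0.414) on HFD, both from limma. Averaged over both diets, *Fdft1* fell in mutants by 0.37 on the log2 scale (standard error 0.10, adjusted p = 0.0351 from limma), and it was the 1 member to pass in that comparison. With single mice left out in turn it passed in 4 of 16 cases, with adjusted p of 0.00119 to 0.0806, and without P357 and P392 the difference was -0.46 with an adjusted p of 0.000707.

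*Sqle* did not pass the test. It was at 18.7, 18.6, 14.9 and 14.5 in controls on SD and 10.4, 13.5, 14.1 and 14.5 in mutants on SD, so that the groups met at about the same value without overlap. On HFD it was at 15.6, 15.1, 15.5 and 11.8 in controls, the last in P392, and at 12.3, 11.9, 11.7 and 11.7 in mutants. Its difference was -0.34 on SD, -0.26 on HFD and -0.30 over both diets (standard error 0.09, adjusted p = 0.0653 from limma). *Lss*, which encodes lanosterol synthase, the enzyme of ring closure, differed by 0.13 on SD and -0.24 on HFD, with adjusted p of 0.769 and 0.756. *Fdft1* overlaps exons of *Ctsb* on the opposite strand, and whether reads were assigned by strand is not given in the sources used here. *Ctsb* differed by -0.06 on SD and 0.20 on HFD, with an adjusted p of 0.797 from limma over both diets. On SD it was at 215 to 229 in controls, 129 in P357 and 232 to 263 in the other mutants. The value on SD thus rests on P357, and its difference without that mouse is not given here.

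The genotype comparison over both diets had 25 of 32 members lower (78.1%, against 49.6% of all genes) and 8 (25%) with an unadjusted p under 0.05, against 22.7% of all genes. At an adjusted p under 0.05 it was 1 of 32, against 6.54% of all genes. For *Soat1* the estimate was -0.58 (standard error 0.17), just outside the threshold in limma at an adjusted p of 0.0527. The 8 members with an unadjusted p under 0.05 were *Soat1*, *Fdft1*, *Sqle*, *Insig1*, *Npc2* and *Acat2*, all with lower estimates, and *Apoe* and *Dhcr7*, with higher ones. Without P357 and P392, 6 members passed adjustment, namely *Fdft1*, *Sqle*, *Soat1*, *Dhcr7*, *Lrp1* and *Apoe*. That is 18.8% of the members, against 18.6% of all tested genes. Of the 32 members 21 then had a lower estimate (65.6%, against 47.6% of all genes).

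**Figure D2:**
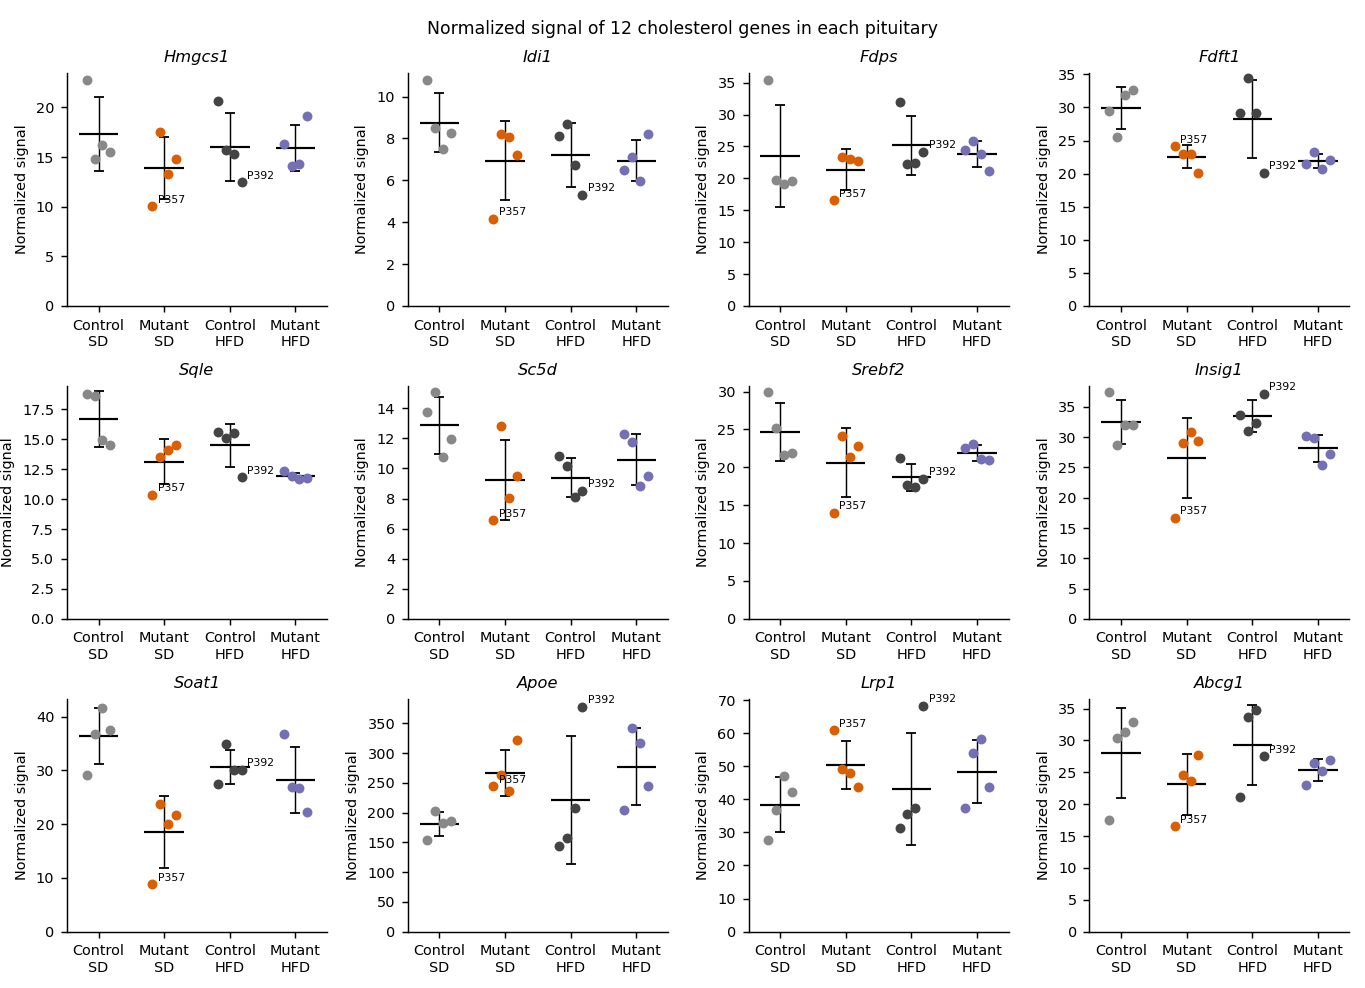
Normalized signal of 12 members in each of the 16 pituitaries, 1 point per mouse, with the group mean as a wide line and the SD as error bars; the vertical axes start at 0. The mutants on SD lie below the controls on SD for *Soat1* and *Fdft1*, and P392 is the highest control on HFD for *Apoe* and *Lrp1*.

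The early steps, from acetyl-CoA to farnesyl diphosphate, gave no gene past the test in any comparison. On SD 6 of 7 had a lower estimate, with a median of -0.14 and adjusted p of 0.296 or more. *Hmgcs1*, which makes HMG-CoA, was at 22.8, 14.8, 16.2 and 15.6 in controls on SD and at 10.04, 17.6, 13.3 and 14.8 in mutants on SD, and the groups overlapped. *Idi1*, the isopentenyl diphosphate isomerase, differed by -0.35 on SD and -0.04 on HFD, and without P357 and P392 by -0.14 and -0.17. *Mvk*, mevalonate kinase, differed by -0.34 and -0.01, whereas *Mvd*, the mevalonate diphosphate decarboxylase, was at 0.08 and 0.12. *Acat2*, whose enzyme joins acetyl-CoA units at the entry to the pathway, had the second smallest unadjusted p of the members on HFD. It was at 9.55, 9.16, 9.92 and 8.15 in controls on HFD and at 6.95, 7.92, 8.26 and 6.998 in mutants on HFD, where 1 mutant exceeded the lowest control, P392 (difference -0.27, standard error 0.13, adjusted p = 0.496 from limma). *Acat2* shares sequence with *Acat3* and *Tcp1* (at least 90% identity over at least 300 bp), so its value is uncertain.

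The steps after lanosterol differed among themselves. *Sc5d* encodes the sterol desaturase that makes 7-dehydrocholesterol, and *Dhcr7* encodes the reductase that acts on it. *Sc5d* was at 13.7, 15.1, 10.7 and 11.95 in controls on SD and 6.56, 12.8, 8.05 and 9.48 in mutants on SD, with the lowest value in P357 and 1 mutant inside the control range. The difference was -0.49 (standard error 0.18, adjusted p = 0.158 from limma), and -0.35 without P357 and P392. *Dhcr7* went the other way. It was at 18.6, 15.7, 18.6 and 15.7 in controls on SD and at 15.2, 22.6, 24.9 and 25.2 in mutants on SD, where the mutant below all controls was P357 and the other 3 mutants lay above them. The difference for *Dhcr7* was 0.33 on SD (0.49 without P357 and P392) and 0.24 on HFD, and over both diets 0.28 (standard error 0.12, adjusted p = 0.163 from limma). *Cyp51*, the lanosterol demethylase, *Tm7sf2*, a sterol reductase, *Msmo1* and *Nsdhl*, which remove methyl groups, *Hsd17b7* and the isomerase gene *Ebp* had adjusted p of 0.334 to 0.973 on SD. *Ebp* did not overlap between groups on HFD, at 20.5 to 23.2 in controls and 15.4 to 19.7 in mutants (difference -0.26, adjusted p = 0.582 from limma).

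All 4 genes of the SREBP2 control system had lower estimates in mutants on SD, and none passed adjustment. *Srebf2*, which encodes SREBP2, differed by -0.27, the escort gene *Scap* by -0.44, and the retention genes *Insig1* and *Insig2* by -0.32 each, with adjusted p of 0.188 to 0.376. P357 was the lowest of the 4 mutants for each of them. The differences without P357 and P392 were -0.10 for *Srebf2*, -0.22 for *Scap*, -0.12 for *Insig1* and -0.12 for *Insig2*, with standard errors of 0.09 to 0.15. *Insig1* was at 28.7 to 37.4 in controls on SD, 16.7 in P357 and 29.1 to 30.8 in the other 3 mutants, so that without P357 the mutants lay within the control range. On HFD *Insig1* did not overlap, at 31.0 to 37.1 in controls and 25.5 to 30.1 in mutants, with a difference of -0.25 (adjusted p = 0.633 from limma).

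The efflux and LXR genes had their highest estimate in *Apoe*. It was at 154, 203, 182 and 186 in controls on SD and 244, 262, 236 and 321 in mutants on SD, without overlap. The difference was 0.55 (standard error 0.24, adjusted p = 0.228 from limma). On HFD controls were at 143, 158, 207 and, in P392, 378, and mutants at 204, 343, 317 and 245, and the difference was 0.40 (adjusted p = 0.61). The HFD difference of *Apoe* without P357 and P392 was 0.70 (adjusted p = 0.0323 from limma). Of the LXR-regulated exporters, *Abca1* differed by -0.32 on SD and 0.12 on HFD and *Abcg1* by -0.26 and -0.18, and *Nr1h3*, which encodes LXRα, by -0.39 and -0.13. None of these passed adjustment (adjusted p of 0.283 to 0.944 from limma). In the fit to the other 14 mice *Abca1* differed by -0.08 on SD and 0.29 on HFD, *Abcg1* by -0.11 and -0.20, and *Nr1h3* by -0.42 and -0.24. P357 was the mutant on SD with the lowest *Abca1*, at 4.64 against 8.59 to 10.2 in the other 3.

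Cell type markers moved with genotype beside these genes. All 7 endothelial genes had higher estimates in mutants on SD with an unadjusted p under 0.05, which 19.9% of all genes had, and 0 of the 7 passed adjustment in limma. Their summed signals were 120 to 141 in controls and 177 to 241 in mutants on SD, and 110 to 218 and 168 to 189 on HFD, where they overlapped. The 9 myeloid genes, none of which was at 0 in any mouse, had higher estimates too, with sums of 60.8 to 81.4 in controls and 104 to 245 in mutants on SD. On HFD the myeloid sums were 54.6 to 175 and 99.4 to 220, and the highest control was P392. The sums of 7 stem and folliculostellate genes (80.8 to 96.5 in controls, 117 to 135 in mutants) and of 6 fibroblast and pericyte genes (69.5 to 87.5 and 89.0 to 120) did not overlap on SD either, whereas those of hormone cell, posterior lobe, erythroid, adipocyte and oligodendrocyte genes did. The hormone cell sum was mostly *Prl*. Of the adipocyte genes only *Plin1* was present, at 0.043 to 0.966 over the 16 mice, too low to be tested. The fibroblast and pericyte genes were divided. *Rgs5* had means of 28.2 in controls and 66.4 in mutants on SD, and *Col1a1* and *Pdgfrb* were also higher in mutants. *Dcn* (34.5 in controls and 23.3 in mutants), *Lum* (5.25 and 4.05) and *Pdgfra* (2.15 and 1.48) were lower. All 5 erythroid genes had an unadjusted p under 0.05 over both diets, which 22.7% of all genes had, with a median difference of 1.07. Of these 5 genes 0 passed adjustment. The 4 melanotroph genes summed to 11606 to 17521 in controls on SD and 1666 to 15237 in mutants on SD, with the lowest in P357. Nearly all of that sum was *Pomc* (11506 to 17362 and 1654 to 15105), which is on the hormone cell list too. *Pax7*, *Pcsk2* and *Oacyl* were also lowest in P357 among the mutants on SD. Within groups over all 16 mice, *Apoe* correlated with the myeloid genes at r = 0.82 and, without P357 and P392, at 0.75. *Soat1* correlated with the melanotroph genes at 0.70, and at 0.26 without those 2 mice. With the endothelial and erythroid genes it correlated at -0.02 and 0.01 over all 16 mice, and at 0.61 and 0.59 without those 2. *Sqle* and *Srebf2* correlated with the erythroid genes at -0.715 and -0.70, and at -0.79 and -0.75 without those 2 mice. *Fdft1* correlated at -0.73 with the endothelial and -0.63 with the fibroblast and pericyte genes, and at -0.08 and -0.13 without P357 and P392. These are descriptions over libraries that share a normalization, and the part of cell composition in the differences of *Apoe*, *Soat1*, *Fdft1*, *Sqle* and *Srebf2* was not tested.

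On HFD the estimate was lower in mutants in 22 of 32 members (68.8%, against 46.1% of all genes), with a median of -0.07 against 0.02. *Fdft1* was the 1 member (3.12%) with an unadjusted p under 0.05, against 10.2% of all genes. In limma 0 members and 0 of all genes passed adjustment, and groups did not overlap in 2 members (6.25%, against 5.3%). Without P357 and P392, *Fdft1* (-0.49, adjusted p = 0.0105), *Sqle* (-0.36, adjusted p = 0.0494) and *Apoe* passed in limma, 9.38% of the members against 7.42% of all genes. Leaving out P392 alone gave *Fdft1* and *Apoe*, 6.25% against 4.55%.

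The diet comparison asks whether 17 weeks of HFD changed these genes within a genotype. In controls 16 were lower (49.7% of all genes were) and 16 higher on HFD, and 3 had an unadjusted p under 0.05 (9.38%, against 4.13% of all genes, or 2.2% that were lower), with 0 members and 0 of all genes past adjustment in limma. Those 3 were all lower on HFD. *Srebf2* was at 29.9, 25.2, 21.6 and 21.9 in controls on SD and at 21.3, 17.7, 17.4 and 18.4 in controls on HFD, and was the 1 member without overlap (3.12%, against 2.61% of all genes; difference -0.38, standard error 0.15, adjusted p = 0.998 from limma). *Cyp51* was at 6.69 to 9.68 on SD and 4.99 to 7.48 on HFD, and *Sc5d* at 10.7 to 15.1 on SD and 8.11 to 10.8 on HFD (differences of -0.46 and -0.43, adjusted p = 0.998 each). The ranges of these 2 genes overlapped.

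In mutants 14 members were lower (43.8%, against 45.8% of all genes) and 18 higher on HFD, and 2 had an unadjusted p under 0.05 (6.25%, against 5% of all genes), both higher (2.55% of all genes), with 0 members and 0 of all genes past adjustment in limma. *Soat1* had a difference of 0.66 (standard error 0.24, adjusted p = 0.813 from limma), or 0.34 without P357 and P392. *Nr1h3* was at 5.95, 5.24, 5.98 and 5.21 in mutants on SD and at 7.67, 7.85, 10.7 and 6.68 in mutants on HFD. It was the 1 member without overlap (3.12%, against 3.31% of all genes), with a difference of 0.50 (standard error 0.20, adjusted p = 0.813 from limma). *Scap* came next, with 20.4, 36.4, 40.1 and 37.6 on SD and 45.0, 38.6, 37.3 and 43.0 on HFD, the lowest being P357. It differed by 0.32, and by 0.10 without P357 and P392. Averaged over both genotypes 15 members were lower (46.9%, against 46.7% of all genes) and 17 higher, 1 had an unadjusted p under 0.05 (3.12%, against 5.11% of all genes) and 0 passed adjustment in limma (0.00697% of all genes). That member was *Nr1h3* (0.37, standard error 0.14, adjusted p = 0.9). *Msmo1* followed with -0.29 (adjusted p = 0.91, and -0.17 without P357 and P392) and *Sqle* with -0.16 (adjusted p = 0.91).

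Whether the genotype difference itself changed with diet was tested by the interaction. In limma 0 of 32 members and 0 of all genes passed adjustment, and 5 members had an unadjusted p under 0.05 (15.6%, against 4.2% of all genes). *Soat1* had an interaction of 0.89 (standard error 0.34), *Sc5d* of 0.65 (standard error 0.26), *Cyp51* of 0.61 (standard error 0.26), *Srebf2* of 0.50 (standard error 0.21) and *Nr1h2* of -0.33 (standard error 0.15), each with an adjusted p of 0.924 from limma. In the first 4 the mutant estimate was below control on SD and nearer to control, or above it, on HFD. For *Soat1*, *Sc5d*, *Cyp51* and *Srebf2* the controls on SD had the highest mean of the 4 groups. With P357 and P392 left out the interaction was 0.57 for *Soat1*, 0.47 for *Sc5d*, 0.46 for *Cyp51*, 0.32 for *Srebf2* and -0.26 for *Nr1h2*.

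The co-variation of the pathway changed when a few mice were left out. Deviations of log2 signal from the group mean were correlated between members over 16 mice, which share a normalization, as a description only. *Srebf2* correlated with *Fdps* (r = 0.83), *Insig1* (0.82), *Sc5d* (0.77), *Idi1* (0.75), *Sqle* (0.75) and *Hmgcs1* (0.73), and *Hmgcs1* correlated with *Idi1* at 0.81. The median over all 496 pairs of members was 0.07, that of *Srebf2* with the 18 synthesis enzymes was 0.41, and that of the 153 pairs of synthesis enzymes was 0.08. Among the synthesis enzymes *Srebf2* had negative correlations with *Tm7sf2* (-0.63), *Nsdhl* (-0.60), *Pmvk* (-0.30), *Fdft1* (-0.24), *Msmo1* (-0.11), *Mvk* (-0.10) and *Ebp* (-0.03).

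The control on SD labelled P356 was the highest of its group for 10 of 18 synthesis enzymes, among them *Fdps* at 35.5, against 19.1 to 19.8 in the other 3 controls, and the lowest for 4 of 5 efflux and LXR genes. The control on HFD labelled P385 was the lowest of its group for all 5 efflux and LXR genes, with *Abca1* at 4.24 against 8.80 to 13.0. It was the highest for 6 of 18 synthesis enzymes, as was P391 of the same group. P357 was the lowest mutant on SD for 9 of 18 synthesis enzymes. Without P357 and P392, *Srebf2* correlated at -0.85 with *Abcg1*, -0.77 with *Abca1* and -0.80 with *Nr1h3*. When P356 and P385 were left out as well, these became -0.17, -0.15 and -0.33 over 12 mice. The median of *Srebf2* with the synthesis enzymes was then 0.00, in a range from -0.63 with *Acat2* to 0.89 with *Sc5d*. The correlation of *Srebf2* with *Hmgcs1* was 0.00, with *Idi1* 0.15 and with *Insig1* -0.15, and that of *Hmgcs1* with *Idi1* was 0.42. *Sc5d*, *Mvd* (0.81) and *Sqle* (0.64) were among the enzymes that stayed above 0.5 with *Srebf2*. P356 and P385 were picked after these values were seen, so weaker correlations without them were partly built in. The only controls on HFD left were P390 and P391.

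**Figure D3:**
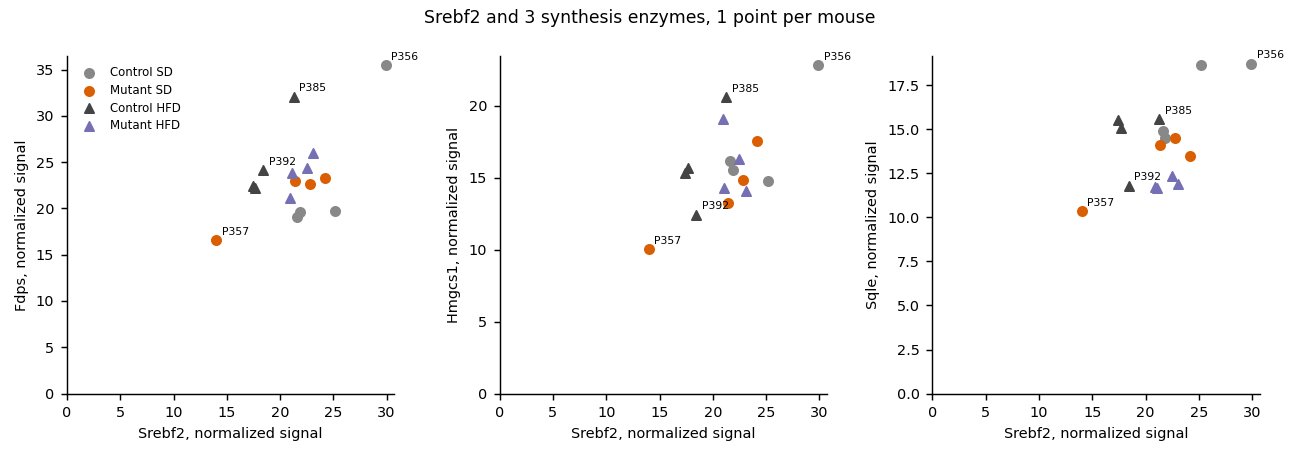
Signal of *Srebf2* on the horizontal axis against *Fdps*, *Hmgcs1* and *Sqle* on the vertical axes, 1 point per mouse, with circles for SD, triangles for HFD and all axes from 0. P356 lies at the top right and P357 at the bottom left of the *Fdps* and *Hmgcs1* panels, away from the other mice.

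**Figure D4:**
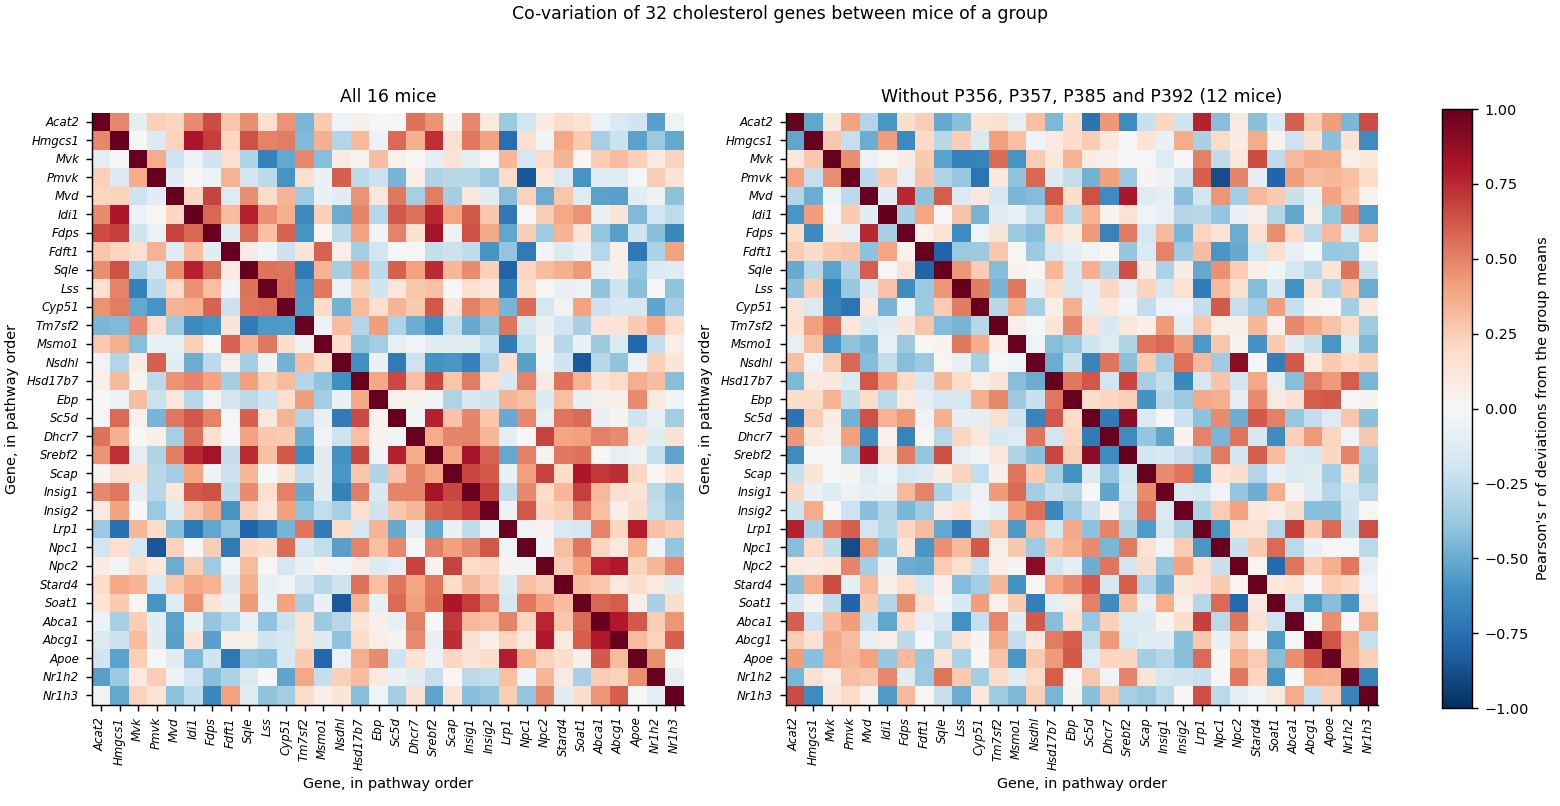
Pearson correlation between all pairs of the 32 genes, as deviations of log2(value + 0.5) from the group means, over all 16 mice and without the 4 mice P356, P357, P385 and P392. Red is positive and blue negative; *Srebf2* with *Hmgcs1* fades from 0.73 to 0.00, whereas *Srebf2* with *Sc5d* stays, at 0.77 and 0.89.

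Genes that neighbour these in sterol metabolism were read from a wider list, of which 65 were tested. Over both diets 15 of the 65 had an unadjusted p under 0.05 (23.1%, against 22.7% of all genes), and 4 passed adjustment (against 6.54% of all genes). *Ch25h*, which encodes the enzyme that makes the oxysterol 25-hydroxycholesterol and is made by macrophages among other cells, was at 1.98, 0.289, 0.578 and 0.143 in controls on SD and at 6.03, 3.85, 4.07 and 2.92 in mutants on SD. The groups did not overlap, and *Ch25h* rose by 2.09 on the log2 scale (standard error 0.51, adjusted p = 0.0473 from limma). It passed on SD in 6 of 10 other settings and in 3 of 16 cases with a single mouse left out, where the adjusted p reached 0.143. Its control values on SD were low, and those of 0.143 and 0.289 lay below the pseudocount of 0.5. The size of the difference on SD thus depends on the setting, from 1.65 to 2.79 over the 10. On HFD it was at 0.767, 0.175, 1.01 and, in P392, 4.63 in controls and 3.10 to 5.78 in mutants, and over both diets the difference was 1.79 (standard error 0.36, adjusted p = 0.0106). The myeloid sums given above moved the same way, and their part in *Ch25h* was not tested.

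*Gramd1b*, whose product carries cholesterol from the plasma membrane to the endoplasmic reticulum, fell in mutants by 0.34 over both diets (standard error 0.08, adjusted p = 0.0167 from limma). It was at 39.3 to 51.8 in controls on SD and 32.8 to 39.5 in mutants on SD, which overlapped, and at 41.9 to 50.8 and 32.4 to 40.0 on HFD, which did not. *Arl4c*, an LXR target, rose by 0.34 (adjusted p = 0.0454) and *Cyb5r3*, a reductase that feeds electrons to sterol enzymes, by 0.25 (adjusted p = 0.0421) over both diets, and each passed in 4 of 16 cases with a single mouse left out. By list, adjusted p under 0.05 over both diets was met by 1 of 8 genes of oxysterol and side-chain enzymes, 1 of 23 of other sterol transport, 1 of 6 of other LXR targets, 1 of 4 of other post-squalene enzymes, 0 of 12 of SREBP cleavage and sterol-regulated degradation and 0 of 13 of the isoprenoid branch. In the isoprenoid branch 12 of the 13 estimates were higher in mutants, with a median of 0.10, where 49.6% of all genes were lower, and 2 of the 13 (15.4%) had an unadjusted p under 0.05, against 22.7% of all genes.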

How the data were processed

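Pituitary libraries (NEBNext Ultra II RNA kit, NovaSeq) of 16 females were quantified by the authors with kallisto (gene mode, mm10), and sleuth served for their own tests. Tool versions, annotation release and strand setting are not given in the sources used here. What was deposited is 1 normalized signal value for each gene and mouse, not a count. A count test had been planned in case they were counts and was not run. Groups came from the sample labels. Genes averaging 1 or more across the 16 mice were taken as log2(value + 0.5) and fitted in limma 3.58.1 (R 4.3.3) with 1 mean per group, eBayes with trend, 12 residual degrees of freedom and Benjamini-Hochberg adjustment over all tested genes within each of 7 comparisons, at a threshold of 0.05. The pseudocount shrinks differences of genes with low values. The script was tested on simulated data. Replicates are single mice. Member and wider gene lists, and cell type markers, were chosen with earlier results of these data known. Members received full statistics where an adjusted p was under 0.05 or where their unadjusted p was among the 3 smallest of a comparison, and genes of the wider lists were named where an adjusted p was under 0.05. *Apoe*, *Lrp1*, *Insig1*, *Hmgcs1*, *Dhcr7* and *Ebp* were described after their values were seen. Gene overlaps were read from GENCODE M21, shared sequence was searched with BLAST 2.17.0 (90% identity over at least 300 bp), and promoters came from RefSeq on GRCm38.p6. The values gave 7 members that overlap exons of a gene on the opposite strand, and 5 that share sequence with another gene of the table. Alternatives were filters at a mean of 0.1 or 5 or none, a pseudocount of 0.1 or 1, scaling by the median or by quantiles, eBayes fitted without a trend, a fit to the compared groups alone, a covariate for the range of animal labels, P357 and P392 left out, and each mouse left out in turn. Correlations without P356 and P385 were added after the values were seen. Python 3.11.15, numpy 2.4.6, pandas 2.3.3 and matplotlib 3.10.9 were used for figures and sequences.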

Additional observations from a re-analysis of the deposited data

Results flagged for a closer look

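In each group of 4 mice and for each member, the highest and lowest value were compared with the others by the gap to the nearest value as a share of the range, against Dixon's critical value. Of 128 groups 9 had such a value, where chance alone gives about 6.4. Controls on SD held 3 of them. *Fdps*, the farnesyl diphosphate synthase gene, was at 35.5 in P356 against 19.1 to 19.8 in the other controls, *Abcg1* was at 17.5 in P356 against 30.4 to 32.9, and *Nr1h2* was at 69.1 in P358 against 54.8 to 56.8. In mutants on SD, *Fdps* was at 16.6 in P357 against 22.7 to 23.3, and *Insig1* at 16.7 in P357 against 29.1 to 30.8. In controls on HFD, *Mvd* was at 5.16 in P385 against 4.15 to 4.32, *Sqle* at 11.8 in P392 against 15.1 to 15.6, and *Lrp1* at 68.2 in P392 against 31.2 to 37.4. In mutants on HFD, *Npc1* was at 20.2 in P339 against 16.1 to 16.8. P356, P357 and P392 had 2 of these values each. The cause of these values was not tested.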

How the results depend on the processing

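With P357 and P392 left out, the number of members past adjustment was 2 on SD (*Fdft1* and *Soat1*), 3 on HFD and 6 over both diets, or 6.25%, 9.38% and 18.8% against 6.7%, 7.42% and 18.6% of all genes. It was 0 on SD with only the groups compared and without a trend of the variance (2.17% and 1.74% of all genes), and 3 over both diets under median scaling and under quantile normalization (*Fdft1*, *Sqle* and *Soat1*, 9.38%, against 6.49% and 7.54% of all genes). Leaving out each mouse in turn gave 0 to 2 on SD, 0 to 2 on HFD and 0 to 5 over both diets, where 0.23% to 5.76%, 0% to 4.55% and 3.07% to 13.5% of all genes passed, with the highest member counts (2, 2 and 5) without P392. The diet comparisons and the interaction gave 0 in every setting run. The number of members with a lower estimate in mutants was 23 to 24 on SD, 18 to 23 on HFD and 21 to 27 over both diets in these settings. Of all genes 47.7% to 54%, 44.5% to 53.9% and 47.6% to 55.6% were lower there. With single mice left out, 22 to 25, 19 to 23 and 21 to 26 members were lower. The shares of all genes were then 47.7% to 52.3%, 45.9% to 47.6% and 47% to 50.6%. *Fdft1* over both diets passed in all 10 settings but in 4 of 16 with a mouse left out (adjusted p of 0.00119 to 0.0806 from limma). *Ch25h* over both diets passed in every setting run. *Ch25h* on SD did not pass in 4 of 10 settings, nor did *Arl4c* in 4 of 10 and *Cyb5r3* in 2 of 10 over both diets. With a mouse left out these passed in 3, 4 and 4 of 16 cases. Without P357 and P392 the estimate changed sign in 1 member on SD (*Fdps*), 3 on HFD (*Hmgcs1*, *Scap* and *Insig2*) and 4 over both diets. The causes of these changes were not tested. No paired analysis was possible because the labels give no replicate numbers shared between groups. Depth is known only through the estimated 0.0452 to 0.0676 units per read and kilobase.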
